A study of Mus musculus with 10 samples.

Results

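The mRNA levels of 8 genes of fast inhibitory signalling were followed in the mouse dentate gyrus between 4 and 12 weeks of age. Of these, 6 encode subunits of the GABA-A receptor (Gabra2, Gabra3, Gabra4, Gabra5, Gabrb1 and Gabrd) and 2 encode chloride transporters (Slc12a2 and Slc12a5). They were chosen by name, as members of this pathway, from the 19752 genes measured. Each of the 8 was read by 1 probe set whose platform annotation named that gene alone, so no choice between probe sets was needed. All tissue came from mice that the labels give as female and of strain C56BL/6J, at 4, 6, 8, 10 and 12 weeks, with 2 arrays at each age. The labels name no allele, transgene or treatment. Nothing in the labels ties an array to an animal or a pool. The p-values therefore cover only the differences among these arrays, part of which may be technical.

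GABA-A receptors are pentameric chloride channels opened by the inhibitory transmitter GABA. The alpha subunit that a receptor carries sets much of its position and kinetics: receptors with alpha2 or alpha3 are known mainly from synapses, and those with alpha5, or with alpha4 and delta, mainly from outside synapses, where they carry the tonic current for which dentate granule cells are known. The direction of the current depends on chloride. Slc12a2 encodes NKCC1, which brings chloride into the cell, and Slc12a5 encodes KCC2, the neuronal transporter that moves it out. In newborn neurons, those of the adult dentate gyrus included, NKCC1 is known to outweigh KCC2 and GABA to depolarise the cell, until KCC2 becomes established as the neuron matures.

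Values are log2 expression per probe set, so a difference of 1 is a doubling. They describe the whole dissected tissue, in which fewer cells of a type and less RNA per cell cannot be told apart. All 8 genes lay above the dim reference on 10 of 10 arrays. That reference is the 95th percentile of 1207 olfactory, vomeronasal and trace amine receptor genes and stood between 6.87 and 7.18. The granule cell gene Prox1 (12.15 to 12.38) and the calbindin gene Calb1 (12.44 to 12.73) were well above it on every array. Against the label of female tissue, Xist lay between 5.41 and 6.02, under the dim reference, whereas 3 genes of the Y chromosome lay above it: Uty averaged 9.23, Kdm5d 9.06 and Eif2s3y 8.97. This held for all 10 arrays, so no array was set apart by it. The array of 6 weeks replicate 1 stood apart by Ttr, a choroid plexus gene, at 13.77, against at most 10.15 on the others. The array of 8 weeks replicate 1 was lower than its partner in 8 of 8 of the genes studied. Among all genes brighter than the dimmest of the 8, 68.7% were lower on that array.

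The genes lie on 6 chromosomes (GRCm38.p6, the assembly of mm10), and all are annotated as protein-coding. Gabra2 (chromosome 5, 70958392 to 71095849), Gabra4 (chromosome 5, 71569734 to 71658308) and Gabrb1 (chromosome 5, 71657921 to 72149572) form a cluster with Gabrg1, a gamma subunit gene. Gabra4 and Gabrb1 start head to head on opposite strands, and their annotated spans share 388 bases. Gabra3 lies on the X chromosome (72432676 to 72656919), Gabra5 on chromosome 7 (57407669 to 57591016) and Gabrd on chromosome 4 (155384979 to 155398098). Slc12a5 is on chromosome 2 (164960846 to 164999731), and the position of Slc12a2 is given with its values.

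The sequences before the start sites of these genes differed in their content of CG pairs. RefSeq promoter sequences (GRCm38.p6) were at hand for 6 of the 8 genes, with 9 start sites in all. The 250 bases before each were searched for CG pairs and for TATAAA on both strands, motifs that do not overlap. The windows of Gabra2, Slc12a5 (first start) and Gabra3 (upstream start) are shown 5′ to 3′ on the strand of the gene, because they span the range of CG content among the genes studied. Capitals mark CG and TTTATA, which is TATAAA read on the opposite strand.
Gabra3, chrX:72656920-72657169, minus strand: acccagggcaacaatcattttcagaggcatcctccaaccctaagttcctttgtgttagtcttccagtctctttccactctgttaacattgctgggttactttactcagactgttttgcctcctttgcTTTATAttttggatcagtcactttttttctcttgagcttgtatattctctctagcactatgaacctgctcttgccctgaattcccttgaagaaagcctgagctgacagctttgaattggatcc
Gabra2, chr5:71095850-71096099, minus strand: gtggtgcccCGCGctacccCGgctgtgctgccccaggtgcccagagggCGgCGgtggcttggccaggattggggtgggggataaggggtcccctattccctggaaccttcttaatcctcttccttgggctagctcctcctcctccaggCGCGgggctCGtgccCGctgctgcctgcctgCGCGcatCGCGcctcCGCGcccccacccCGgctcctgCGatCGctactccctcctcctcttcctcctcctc
Slc12a5, chr2:164960596-164960845, plus strand: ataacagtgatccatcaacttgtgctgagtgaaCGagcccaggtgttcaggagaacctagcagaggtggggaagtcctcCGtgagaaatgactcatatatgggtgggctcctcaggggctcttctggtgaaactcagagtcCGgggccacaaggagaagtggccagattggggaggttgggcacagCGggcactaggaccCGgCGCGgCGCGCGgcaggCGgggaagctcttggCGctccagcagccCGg
Both Gabra3 windows, which overlap, held 0 CG pairs, as did 7.87% of all 32851 windows. The Gabra2 window held 18, the first Slc12a5 window 13 and the downstream Slc12a5 window 16, against a median of 6 over all windows. Gabra4 had 12 CG pairs, Gabra5 had 9, and the upstream and downstream starts of Gabrb1 had 18 and 6. TATAAA was found in the Gabra3 windows, on the opposite strand, its first base lying 123 bases before the upstream start. It was found in 12.4% of all windows and in no window of the other 5 genes. These matches describe the letters of the windows only.

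No change with age was detectable for any of the 8 genes between 4 and 12 weeks. In a linear fit over age, 0 of the 8 passed at an adjusted p under 0.05 (limma, Benjamini-Hochberg over all 19752 genes), where 0.82% of all genes passed (0.147% higher and 0.673% lower). At an unadjusted p under 0.05 the count was also 0, where 11.7% of all genes passed. The fitted changes over the 8 weeks ran between −0.17 and 0.08 on the log2 scale, 4 above and 4 below 0. Their median was 0.01, against 0.00 for all genes. The 95% intervals of the 8 changes, unadjusted, together spanned −0.38 to 0.26, so no fitted interval reached a fall of more than 1.303-fold or a rise of more than 1.198-fold in a straight line over age. The smallest change among the genes that passed was 0.25 in size, larger than any change fitted for the 8. The test over any differences between ages (moderated F-test) called 0 of the 8, against 0.167% of all genes. There 1 of the 8, Gabra3, had an unadjusted p under 0.05, against 8.46% of all genes. The comparison of 12 with 4 weeks also called 0 of the 8, against 0.516% of all genes (0.127% higher and 0.39% lower at 12 weeks), and 0 of the 8 had an unadjusted p under 0.05, against 9.57% of all genes.

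**Figure D1:**
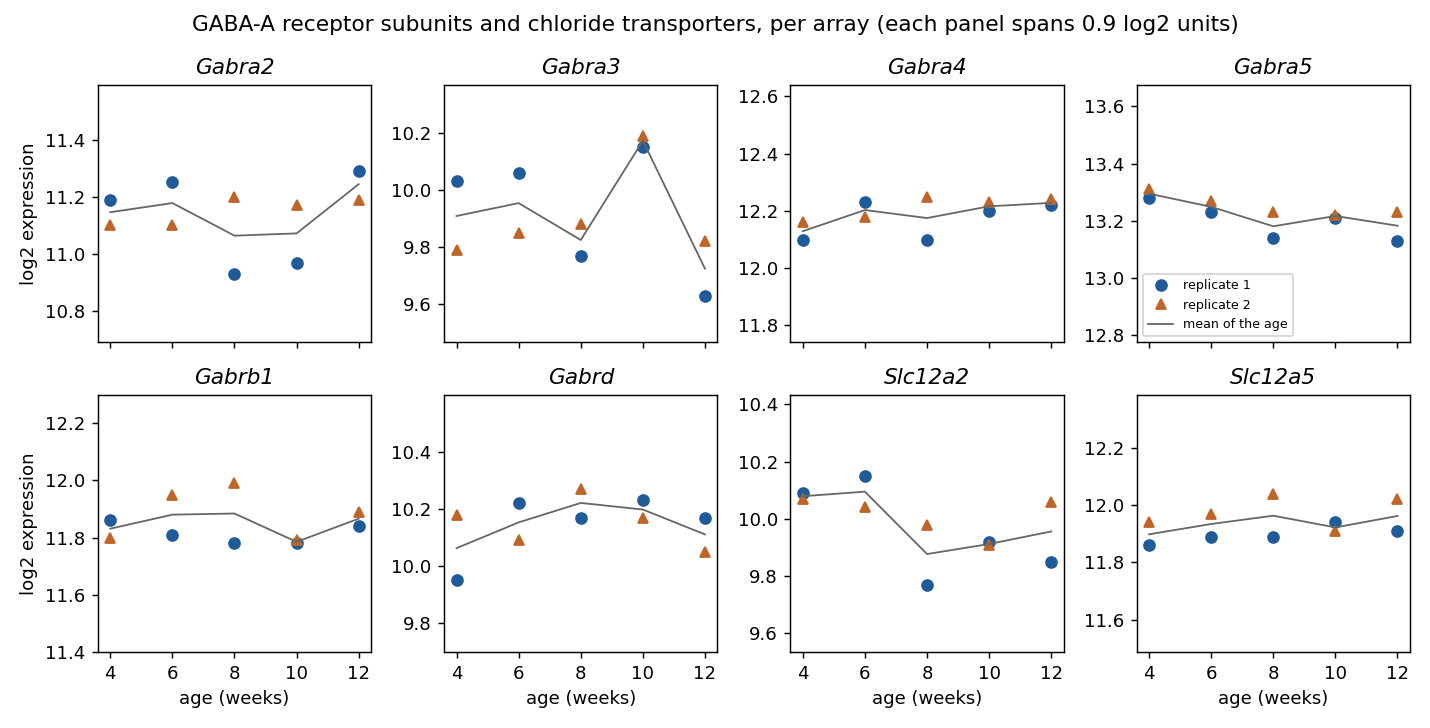
Log2 expression (vertical axis) of the 8 genes against age in weeks (horizontal axis), with a circle for replicate 1, a triangle for replicate 2 and a line through the means of each age; every panel spans the same 0.9 log2 units. Gabra4, Gabra5, Gabrb1 and Slc12a5 stay within 0.21 units over the 10 arrays, and Gabra3 spans 0.56.

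Gabra2 encodes alpha2, a subunit of receptors on the cell body and the axon initial segment. Its level was 11.19 and 11.10 at 4 weeks, 11.25 and 11.10 at 6, 10.93 and 11.20 at 8, 10.97 and 11.17 at 10, and 11.29 and 11.19 at 12 weeks. The arrays of each middle age overlapped those of 4 weeks. The fitted change was 0.04 ± 0.10 (SE, n = 10 arrays, 95% interval −0.18 to 0.25, adjusted p = 0.94). Both 12-week arrays were at or above the higher 4-week array, and the difference of 12 minus 4 weeks was 0.10 ± 0.11 (SE, adjusted p = 0.89). Without 12 weeks replicate 1 the fitted change was −0.04.

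Gabra3 encodes alpha3, a synaptic subunit that is best known from monoaminergic and thalamic reticular neurons. Its level was 10.03 and 9.79 at 4 weeks, 10.06 and 9.85 at 6, 9.77 and 9.88 at 8, 10.15 and 10.19 at 10, and 9.63 and 9.82 at 12 weeks. The 10-week arrays were the highest of the 10, and 12 weeks replicate 1 was the lowest. The level spanned 0.56 log2 units, or 1.48-fold, which exceeds or equals the span of 93.9% of the 14393 genes above the dim reference. The linear change was −0.06 ± 0.15 (SE, adjusted p = 0.93) and was 0.09 without 12 weeks replicate 1.

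The successive steps of Gabra3 were 0.05 ± 0.11 between 6 and 4 weeks and −0.13 ± 0.11 between 8 and 6. Between 10 and 8 weeks the step was 0.35 ± 0.11 (SE, unadjusted p = 0.0107, adjusted p rounding to 1). Between 12 and 10 weeks it was −0.45 ± 0.11 (SE, unadjusted p = 0.00253, adjusted p = 0.61), and its p ranked 80 among the 19752 of that step. Over 20 alternatives this step ran between −0.55 and −0.35, with a smallest adjusted p of 0.2. Most of them could not move its size, as with other variance models or an array of another age left out. Neither step passed, and the F-test gave an adjusted p of 0.53. Among all genes 0% passed in each step. Over the 4 steps, 3 of the 32 values of the 8 genes had an unadjusted p under 0.05, these 2 of Gabra3 and 1 of Slc12a2. Both steps of Gabra3 use the same 10-week arrays, so they are not independent of each other. The share among all genes was 4.13% between 6 and 4 weeks, 6.25% between 8 and 6, 4.79% between 10 and 8 and 5.59% between 12 and 10. Markers of CA1 pyramidal cells, which border the dissected region, had their highest and lowest arrays at the same ages. The mean of the 5 measured genes of 6 listed, all above the dim reference, was 10.05 and 9.95 at 4 weeks, 9.85 and 10.07 at 6, 9.75 and 9.76 at 8, 10.20 and 10.05 at 10, and 9.63 and 9.91 at 12 weeks. At 6 weeks the higher array was replicate 1 for Gabra3 and replicate 2 for these markers. By the mean of the age, Gabra3 was lowest at 12 weeks (9.725), and these markers were lowest at 8 weeks (9.75, against 9.77 at 12). The CA1 list was picked among several marker lists and set beside Gabra3 with the values of both known. Markers of CA2 and CA3 pyramidal cells went otherwise, with means of 9.70 at 8 weeks, 9.64 at 10 and 9.69 at 12. The part of either list in the level of Gabra3 was not tested.

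**Figure D2:**
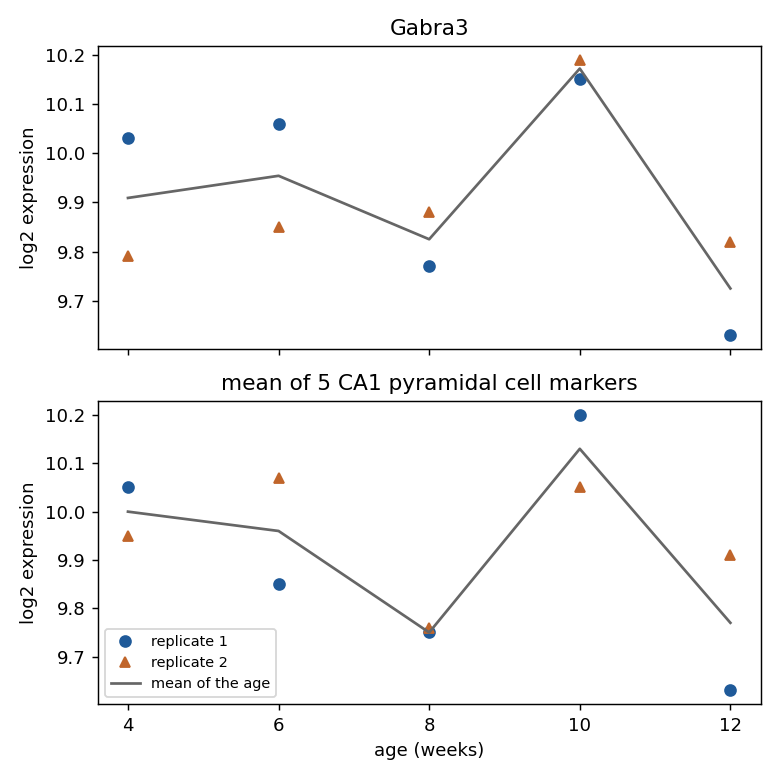
Log2 expression (vertical axes) against age in weeks (horizontal axis) of Gabra3 (top) and of the mean of 5 CA1 pyramidal cell markers (bottom), with a symbol per array and a line through the means of each age. Both have their highest mean at 10 weeks, and in both the lowest array is 12 weeks replicate 1. The lowest mean of Gabra3 is at 12 weeks, and that of the markers is at 8 weeks. The CA1 list was picked among several marker lists and set beside Gabra3 with the values of both known.

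Gabra4 encodes alpha4, the partner of delta in the extrasynaptic receptors of granule cells. It was the steadiest of the 8, with 12.10 and 12.16 at 4 weeks, 12.23 and 12.18 at 6, 12.10 and 12.25 at 8, 12.20 and 12.23 at 10, and 12.22 and 12.24 at 12 weeks. Its span of 0.15 log2 units was equalled or undercut by 7.9% of genes above the dim reference. The 12-week arrays lay above the 4-week arrays, yet the fitted change of 0.08 ± 0.06 (SE, 95% interval −0.04 to 0.21) did not pass (adjusted p = 0.64).

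Gabrd encodes delta, which gives these receptors their high sensitivity to GABA and to neurosteroids. Its level was 9.95 and 10.18 at 4 weeks, 10.22 and 10.09 at 6, 10.17 and 10.27 at 8, 10.23 and 10.17 at 10, and 10.17 and 10.05 at 12 weeks. The lowest array, 4 weeks replicate 1, decided the sign of its change. The linear change was 0.06 ± 0.09 (SE, 95% interval −0.13 to 0.24, adjusted p = 0.87) with that array and −0.04 without it.

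Gabra5 encodes alpha5, an extrasynaptic subunit abundant in the hippocampus. It had 13.28 and 13.31 at 4 weeks, 13.23 and 13.27 at 6, 13.14 and 13.23 at 8, 13.21 and 13.22 at 10, and 13.13 and 13.23 at 12 weeks. The 4-week arrays were the highest of the 10. The fitted change was −0.10 ± 0.06 (SE, 95% interval −0.22 to 0.02, unadjusted p = 0.0909, adjusted p = 0.53), so a fall of more than 0.22 lay outside the interval.

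Gabrb1 encodes beta1, one of the beta subunits, which form the GABA-binding site together with an alpha subunit. It had 11.86 and 11.80 at 4 weeks, 11.81 and 11.95 at 6, 11.78 and 11.99 at 8, 11.78 and 11.79 at 10, and 11.84 and 11.89 at 12 weeks. The arrays of 4 and 12 weeks overlapped. Its change, −0.01 ± 0.07 (SE, 95% interval −0.17 to 0.15, adjusted p = 0.98), was the smallest of the 8 in size, and its sign turned with quantile normalization or median centring.

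Slc12a2 (chromosome 18, 57878512 to 57946821) encodes NKCC1, the chloride importer, which choroid plexus, glia and oligodendrocyte precursors are also known to express. It had the largest fitted change of the 8. Its level was 10.09 and 10.07 at 4 weeks, 10.15 and 10.04 at 6, 9.77 and 9.98 at 8, 9.92 and 9.91 at 10, and 9.85 and 10.06 at 12 weeks. All 4 arrays of 4 and 6 weeks were at 10.04 or above, and of the 6 later arrays 1 was, at 12 weeks. The change of −0.17 ± 0.09 (SE, 95% interval −0.37 to 0.02, unadjusted p = 0.0788) did not pass (adjusted p = 0.50). Without 12 weeks replicate 2 it was −0.26, also not passing (adjusted p = 0.30). The step between 8 and 6 weeks was −0.22 ± 0.09 (SE, unadjusted p = 0.0449, adjusted p = 0.80). It rested in part on 8 weeks replicate 1 and was −0.11 without that array. The step was −0.164 without 6 weeks replicate 1 and −0.059 without both of these arrays. With the mean of the choroid plexus markers as a covariate it was −0.162.

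Marker levels of other cells known to express Slc12a2 differed between arrays. The list of 9 markers of oligodendrocyte precursors also held genes of newly formed oligodendrocytes, Enpp6 and Gpr17 among them. Of the 9, all measured, 5 fell, 0 rose and the rest were not called, with a median change of −0.32. These calls therefore do not single out precursors. The 5, named after their values were seen, were Enpp6 (−1.18 ± 0.15), Bmp4 (−0.96 ± 0.08), Gpr17 (−0.77 ± 0.09), Olig2 (−0.50 ± 0.08) and Olig1 (−0.32 ± 0.06). The mean level of that list was 9.08 and 9.14 at 12 weeks, against 9.62 on both 4-week arrays. The 8 measured choroid plexus markers of 10 listed averaged 9.24 on 6 weeks replicate 1, the array with the highest Slc12a2, and 7.61 to 7.83 on the others. With the choroid plexus mean as a covariate the change of Slc12a2 was −0.15. The 8 astrocyte markers had 0 calls and a median change of −0.11, and their mean level was 11.22 and 11.23 at 12 weeks, against 11.31 and 11.28 at 4 weeks. Of 10 markers of immature neurons and progenitors 7 fell and 0 rose, with a median change of −0.996, and the mean of that list was 9.23 and 9.20 at 12 weeks, against 10.15 and 10.21 at 4 weeks. The part of the precursor, astrocyte and immature neuron markers was not tested.

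Slc12a5 encodes KCC2, the chloride exporter of neurons. It had 11.86 and 11.94 at 4 weeks, 11.89 and 11.97 at 6, 11.89 and 12.04 at 8, 11.94 and 11.91 at 10, and 11.91 and 12.02 at 12 weeks. The ages overlapped throughout. The fitted change was 0.05 ± 0.06 (SE, 95% interval −0.09 to 0.18, adjusted p = 0.85), so a rise of more than 0.18 lay outside the interval. It was 0.078 or 0.013 when replicate 1 or 2 of 12 weeks was left out, and 0.014 when replicate 1 of 4 weeks was.

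The balance of exporter to importer was followed as Slc12a5 minus Slc12a2 within each array, with the mean at 4 weeks set to 0. It is a difference of differences, since the levels of separate probe sets are not comparable. The values were −0.05 and 0.05 at 4 weeks, −0.07 and 0.11 at 6, 0.30 and 0.24 at 8, 0.20 and 0.18 at 10, and 0.23 and 0.14 at 12 weeks. All 6 arrays from 8 weeks on were above all 4 earlier arrays. This split was also made with the values in view, and how many other gene pairs part in this way was not counted. The slope over the 8 weeks was 0.22 ± 0.09 (SE). It is given as a description without a test, since it was formed after the values of both genes were seen. It describes the fitted changes of both genes only, neither of which passed. Over 23 alternatives it lay between 0.17 and 0.33, though several of them, such as other variance models, could not move it.

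**Figure D3:**
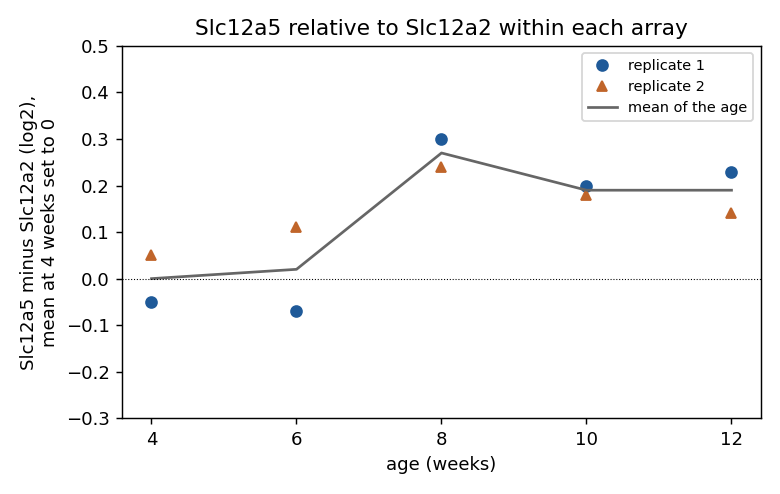
Slc12a5 minus Slc12a2 in log2 units with the 4-week mean set to 0 (vertical axis) against age in weeks (horizontal axis), with a symbol per array and a line through the means of each age. The 6 arrays of 8, 10 and 12 weeks lie between 0.14 and 0.30, above the 4 arrays of 4 and 6 weeks at −0.07 to 0.11. The pair of genes and the split were chosen with the values in view, and no test was made.

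Between 12 and 4 weeks the arrays did not overlap for 4 of the 8 genes, Gabra2 and Gabra4 being higher and Gabra5 and Slc12a2 lower at 12 weeks. With 2 arrays at each age this held for 43.7% of all genes (21.6% higher, 22.2% lower), so the share among the 8 was near that of the whole array. The differences of 12 minus 4 weeks were 0.10 ± 0.07 for Gabra4, −0.11 ± 0.07 for Gabra5, −0.12 ± 0.09 for Slc12a2 and −0.18 ± 0.11 for Gabra3 (SE). Those of Slc12a5, Gabrd and Gabrb1 were 0.06 ± 0.08, 0.05 ± 0.09 and 0.04 ± 0.09. None of the 8 passed, with adjusted p-values between 0.68 and 0.97. Leaving out 1 array, with no call gained, moved all of these differences but that of Gabra4 by over 1.5 times. That of Slc12a2 was −0.023 without 12 weeks replicate 1 and −0.224 without 12 weeks replicate 2. That of Gabra3 was −0.085 or −0.282 when replicate 1 or 2 of 12 weeks was left out, and −0.067 or −0.301 when replicate 1 or 2 of 4 weeks was. Over the arrays left out 1 at a time, the difference ran between 0.049 and 0.148 for Gabra2, 0.068 and 0.128 for Gabra4, −0.161 and −0.062 for Gabra5, 0.008 and 0.062 for Gabrb1, −0.069 and 0.165 for Gabrd, and 0.008 and 0.121 for Slc12a5.

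None of the further pathway genes measured was called. Of 69 further genes listed in 5 groups, 63 were measured, 56 of them above the dim reference, and 6 were not analysed here. Over age 0 rose and 0 fell, with a median change of −0.02. An unadjusted p under 0.05 was found for 10 of the 63 (15.9%), against 11.7% of all genes. The 12 to 4 week comparison and the F-test also called 0 of them.

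Among 10 other receptor subunits the median change was −0.01. The smallest p-values were those of Gabrr2, a rho subunit (0.22 ± 0.09), Gabre, an epsilon subunit that lay under the dim reference (−0.15 ± 0.07), and Gabrg3, a gamma subunit (−0.16 ± 0.08), with adjusted p of 0.35, 0.39 and 0.48. The 19 other cotransporters, their kinases and related chloride and bicarbonate genes had a median of 0.01. Stk39 encodes SPAK, the kinase that activates NKCC1 and inhibits KCC2, and had a change of 0.20 ± 0.07 (adjusted p = 0.26). Slc12a4, a widespread potassium-chloride cotransporter, had −0.15 ± 0.05 (adjusted p = 0.26), and Wnk4, a kinase that acts on SPAK, had 0.16 ± 0.09 (adjusted p = 0.54).

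For the 19 scaffold, assembly and trafficking genes the median was −0.03. The values nearest to a call were those of Insyn2a (−0.14 ± 0.06), Zdhhc3, which palmitoylates the gamma2 subunit (−0.12 ± 0.05), and Insyn1, an inhibitory synaptic scaffold gene (0.11 ± 0.06), with adjusted p of 0.40, 0.40 and 0.46. GABA synthesis, release, uptake and breakdown genes had a median of −0.08 over 9 genes. Abat, the transaminase that breaks GABA down, had −0.16 ± 0.06 (adjusted p = 0.26), Gad2, a GABA-synthesising decarboxylase, had −0.17 ± 0.07 (adjusted p = 0.36), and Slc6a12, a betaine and GABA transporter, had 0.16 ± 0.10 (adjusted p = 0.59). In the group of 6 metabotropic GABA-B receptor genes the median was −0.02. There Kctd12b and Kctd16, auxiliary subunit genes, had −0.28 ± 0.10 and 0.22 ± 0.08 (adjusted p of 0.24 and 0.30), and the receptor gene Gabbr2 had −0.08 ± 0.06 (adjusted p = 0.70).

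**Figure D4:**
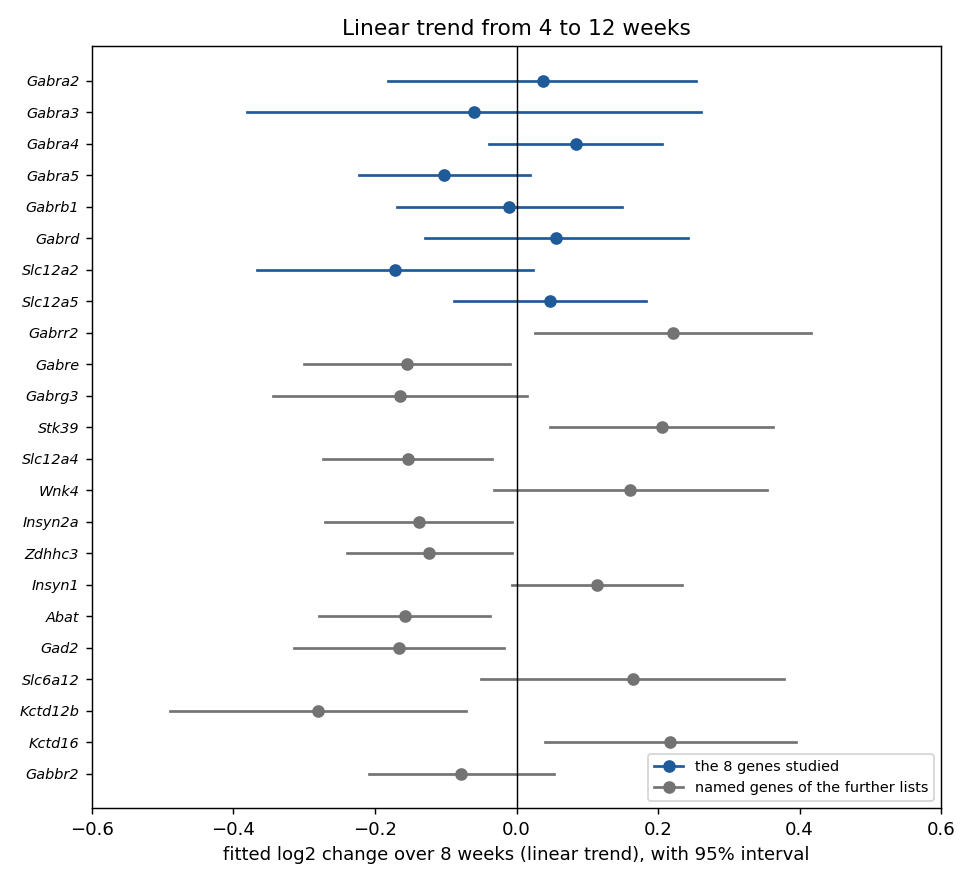
Fitted log2 change over 8 weeks of the linear trend (horizontal axis), with its unadjusted 95% interval, for the 8 genes studied (blue) and the 15 named genes of the further lists (grey), 1 row per gene. The 8 intervals in blue all include 0 and span −0.38 to 0.26, and the grey genes were picked as those of smallest p in their lists.

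The same fit called genes of other cells in this tissue, the immature neuron and oligodendrocyte lineage markers given with Slc12a2 among them. Of 9 measured oligodendrocyte markers 7 fell and 0 rose, with a median of −0.66. Among 12 mature granule cell markers 1 rose, Ntng1 (0.55 ± 0.09), and 1 fell, Tdo2 (−0.44 ± 0.08), both named after their values were seen, and the median was 0.05. Of 11 measured interneuron markers 0 were called, and their median was −0.10. None of these lists was tested against the 8 genes.

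The levels of the 8 genes were compared pair by pair over the arrays. Of the 28 pairs, 0 had an adjusted p under 0.05 (two-sided permutation test, 100000 resamples, 10 arrays). The arrays were shuffled freely across ages. The p-values therefore cannot tell shared ages and array-wide shifts from a link between the genes of a pair. The highest correlation was that of Gabra5 with Slc12a2, at Pearson r = 0.81 (permutation p = 0.0042, adjusted 0.12) and Spearman rho = 0.83 (permutation p = 0.0051, adjusted 0.14). Leaving out the 2 arrays farthest from the median of Gabra5 gave r = 0.50, a removal that narrows the range of Gabra5, and leaving out 8 weeks replicate 1 gave r = 0.71. Gabrb1 and Slc12a5 followed at r = 0.70 (permutation p = 0.026, adjusted 0.36) and rho = 0.49 (permutation p = 0.15, adjusted 0.87), with r = 0.36 without the 2 arrays farthest on Gabrb1. Gabra4 and Gabrb1, the head-to-head pair, had r = 0.29 (permutation p = 0.43, adjusted 0.85) and rho = 0.35 (permutation p = 0.33, adjusted 0.90), and r = 0.23 without the 2 arrays farthest on Gabra4. Slc12a2 and Slc12a5 had r = 0.14 (permutation p = 0.7, adjusted 0.85) and rho = 0.03 (permutation p = 0.95, adjusted 0.95), and r = −0.22 without the 2 arrays farthest on Slc12a2.

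The genes most like each of the 8 over the 10 arrays, by Pearson r among 13779 named genes above the dim reference, are given as a description. Being the highest of so many, they carry no p. For Gabra2 they were N4bp2l2 (r = 0.94) and Spcs3 (r = 0.93), for Gabra3 Dzip1 (r = 0.92) and Bola1 (r = 0.89), and for Gabra4 Rundc3b (r = 0.96) and Vps54 (r = 0.95). For Gabra5 they were Adap1 (r = 0.98) and Mocs2 (r = 0.97), for Gabrb1 Tbc1d30 (r = 0.92) and Mok (r = 0.90), and for Gabrd Letm1 (r = 0.87) and Galns (r = 0.86). Those of Slc12a2 were Gria4, an AMPA receptor subunit gene (r = 0.96), and Crybg3 (r = 0.95), and those of Slc12a5 were Usp12 and Fam169a (r = 0.93 each). The 10 arrays share their ages and the array-wide shifts of single libraries.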

How the data were processed

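Total RNA of dentate gyri was hybridised to Affymetrix whole-transcript arrays. The deposited values were read as log2 expression: they lie between 2.50 and 15.0, and the array medians between 8.27 and 8.31. Log base and normalization software are not given in the sources used here. The build was mm10, per the submitters' processing notes. Of 25254 probe sets, 21496 had 1 gene in the platform annotation, 1565 several and 2193 none; only the first kind was used. The probe set of highest mean over the arrays stood for a gene, which gave 19752 genes. Array correlations were 0.994 to 0.998.

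Tests used limma 3.58.1 in R 4.3.3 (lmFit, default eBayes, two-sided, Benjamini-Hochberg over all genes, threshold 0.05). The trend is the coefficient of age in weeks, given over 8 weeks; age as a factor gave the F-test, 12 versus 4 weeks and the 4 steps. Correlations used scipy 1.17.1. Errors are standard errors, whose precision is limited by having 10 arrays. The code was tested on simulated data. The genes and lists were chosen with earlier results of these data known. Named are the 8 genes, every called gene of each further list or else its 3 of smallest p, and for each of the 8 the 2 genes of highest Pearson r that are no predicted genes. The alternatives were other normalizations, filters, variance models, covariates, the replicate block and leaving out arrays. No scan date or batch was given.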

Additional observations from a re-analysis of the deposited data

How the results depend on the processing

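None of the 8 genes was called in the trend, the F-test, the comparison of 12 with 4 weeks or a step under any alternative run; the smallest adjusted p was 0.20 over 184 trend values, 0.40 over 160 values of 12 minus 4 weeks and 0.079 over 60 step values (Slc12a2 between 8 and 6 weeks, without 8 weeks replicate 2). The 60 step values cover only the 3 steps, of Gabra3 and Slc12a2, that had an unadjusted p under 0.05 in the main fit. For the other steps only the count of calls was kept. Of the trend values 11 had the opposite sign. Many could not move, since the replicate block, the variance models, the filter or leaving out an 8-week array keep the fitted trend. A difference between ages likewise keeps its size when an array of another age is left out. Leaving out 1 array at a time, the trend ran between −0.040 and 0.078 for Gabra2, −0.149 and 0.089 for Gabra3, −0.039 and 0.014 for Gabrb1 and −0.044 and 0.129 for Gabrd. The turned signs came from 12 weeks replicate 1 (Gabra2, Gabra3), 4 weeks replicate 1 (Gabrd), and 6 weeks replicate 2 or either 10-week array (Gabrb1). Without both 12-week arrays Gabra2 had −0.134 and Gabra3 0.264, and without both 4-week arrays Gabrd had −0.060. Gabrb1 had 0.0080 with quantile normalization and 0.0038 with median centring. For 12 minus 4 weeks Gabrd ran between −0.069 and 0.165 leaving out 1 array, turning sign with 4 weeks or 12 weeks replicate 1 left out. The 15 further genes named kept their sign and gained no call (smallest adjusted p 0.093). The slope of Slc12a5 over Slc12a2 was 0.33 without both 12-week arrays.

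Counts over all genes moved more. The trend called 162 genes, 161 with the replicate block, 337 without the dimmest 30%, 350 with trended variance, 417 with array weights, 51 without both 12-week arrays, 7 without both 4-week arrays, and 35 to 279 leaving out 1 array. The 12 to 4 week comparison called 102, and 210, 303 and 261 under the same 3 settings, 66 with the replicate block, and 13 to 188 leaving out 1 array. The F-test called 33, and 69, 151 and 69, then 13 with the block, 17 with the choroid plexus covariate and 5 to 50 leaving out 1 array. The step of 12 versus 10 weeks called 0, 2 with quantile normalization, 3 without the dimmest 30%, 9 with trended variance, 4 with array weights, 1 with the covariate, 2 without replicate 1 of both 6 and 8 weeks, and 0 to 1 leaving out 1 array. That of 6 versus 4 weeks called 0, and 1, 3, 10 and 3 under the first 4 of these and 0 to 10 leaving out 1 array. That of 8 versus 6 weeks called 0, and 0 to 1079 leaving out 1 array, the highest without 8 weeks replicate 2. The causes were not tested. The slope of Slc12a5 over Slc12a2 and the alternatives of the steps were chosen after seeing the data. With an array of an age left out, its partner is assumed to vary like the other ages.

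Deviations of replicate 1 correlated between −0.335 and 0.160 over 10 pairs of ages, above 0 in 8 and above 0.1 in 3. Whether the replicate numbers pair the arrays was not tested. The replicate block changed no call of the 8 genes.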
